A study of Bos taurus with 12 samples.

Results

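The insulin-like growth factor (IGF) axis was followed in mammary gland (MG) biopsies of 6 midlactation Holstein cows, sampled before and during feed restriction. The set held 10 genes: the ligands IGF1 and IGF2, the receptors IGF1R and IGF2R, the binding proteins IGFBP2 to IGFBP6, and IGFALS, the acid-labile subunit. They were taken by gene name, whatever their signal, as all array probes whose RefSeq transcript maps to one of the 10 symbols, out of 12787 genes with a symbol on the array. This gave 33 probes of 43653. Each cow gave 1 biopsy on day 0, under ad libitum feeding of a lactation diet (CONT), and 1 on day 6 of restriction (REST), when the feed offered covered 50% of the net energy for lactation requirement. Each cow was its own control, so feeding and day of sampling cannot be told apart, and the methods state that the rear side of the udder that was sampled alternated. A biopsy mixes epithelium, stroma and vessels, so fewer cells of a type and less RNA per cell cannot be told apart.

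IGF1 and IGF2 are secreted growth factors that signal through the tyrosine kinase receptor IGF1R, while IGF2R takes up IGF2 and carries it to the lysosome for breakdown. Most IGF in blood and tissue fluid is held by the IGF binding proteins, and IGFBP3 or IGFBP5 can form a large, long-lived complex with an IGF and the acid-labile subunit. Circulating IGF1 comes largely from the liver under growth hormone, and its level falls in underfed dairy cows, whereas in the mammary gland IGF1 is mainly a stromal product that acts on epithelial growth and survival.

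Signals are given as log2 of the processed spot intensity relative to the 75th percentile of the array, and a change is the REST signal minus the CONT signal of the same cow, so that 1 log2 unit is a doubling. Only probes that stood well above background on every array of at least 1 period were tested, and a probe was called when its adjusted p (limma with the cow as a block, Benjamini-Hochberg over all 19403 tested probes) was under 0.1. Of the 33 probes, 25 were tested, covering 7 of the 10 genes, and 22 of them passed the background criterion on each of the 12 arrays. The other 3 tested probes, 1 each of IGF1, IGFBP3 and IGFBP5, were well above background on 6 REST but only 5 CONT arrays. IGF1R, IGFBP2 and IGFALS had no tested probe.

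Among the IGF axis genes, IGFBP3 rose in REST on all of its probes and IGF2 rose on some of them. The other 5 tested genes had no called probe. In all, 8 of the 25 tested probes were called, each higher in REST, and they belonged to 2 of the 7 tested genes. Over the whole array 16% of tested probes were called and 7.22% were called higher, while 20.5% of tested genes had a called probe and 9.07% had one called higher. The share of genes with a called probe, 2 of 7, stood close to that background, and counting only the brightest tested probe of each gene the same 2 of 7 were called higher, against 6.94% of all tested genes. For IGF2 that call of the brightest probe was lost on leaving out any one of cows 1 to 5 (adjusted p by limma between 0.138 and 0.231), without the block (0.316) and in the paired test without moderation (0.172), so that 1 of 7 was left. No tested probe had separate ranges in CONT and REST, which 2.25% of all tested probes had. Without the cow as a block, 4 of the 25 probes were called, in the same 2 genes, against 4.31% of all tested probes.

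**Figure D1:**
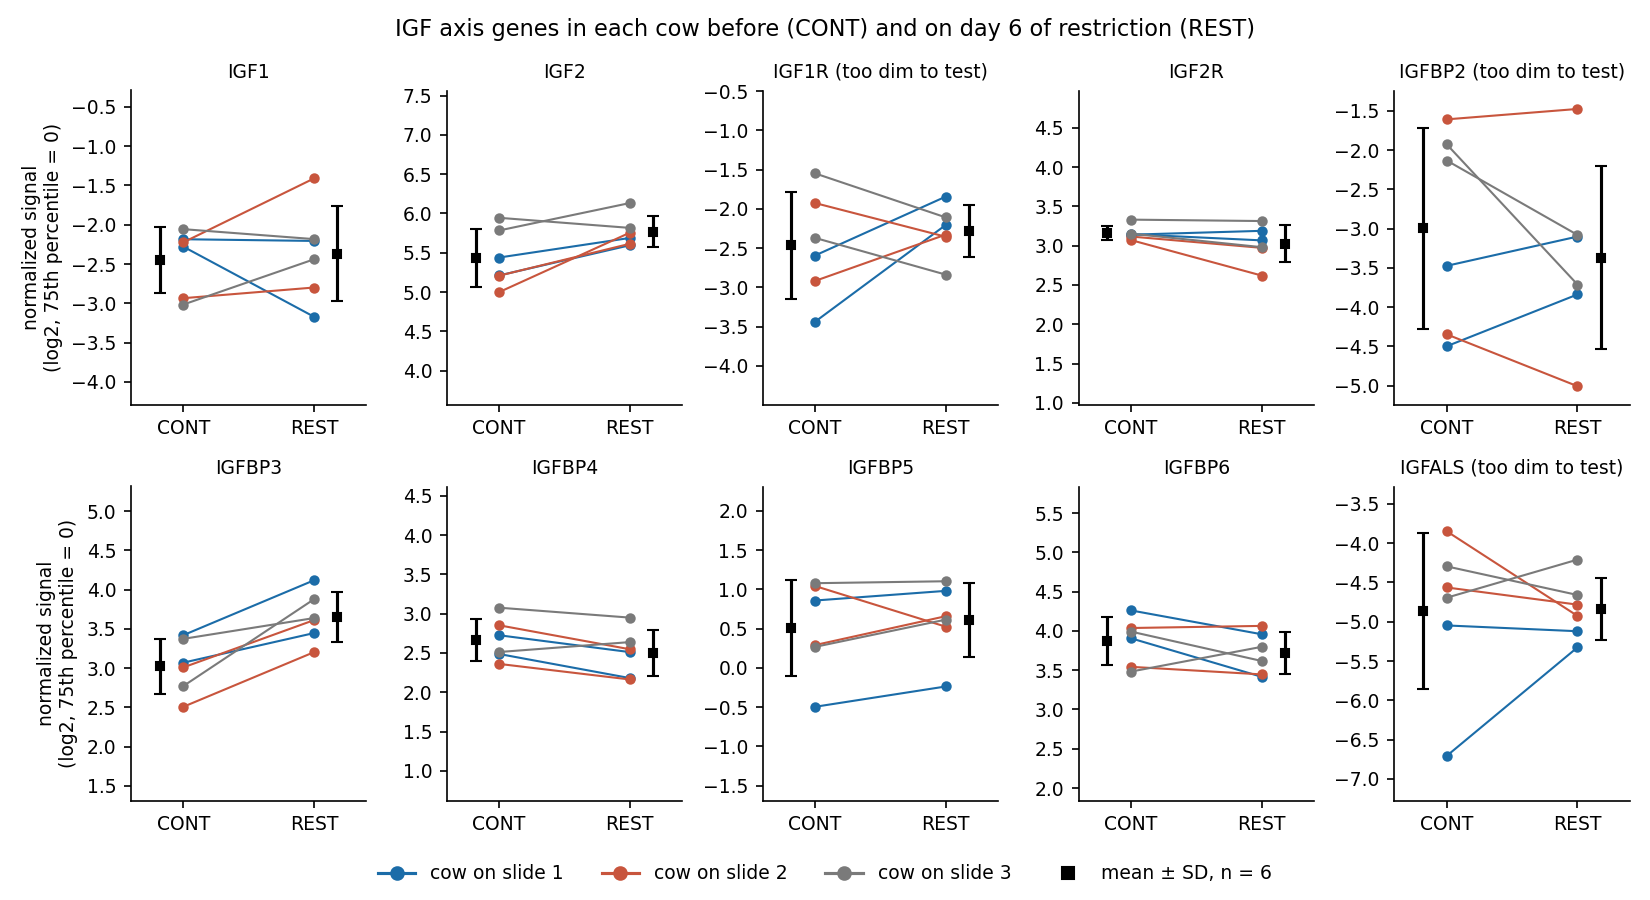
Normalized signal (log2, relative to the 75th percentile of the array) of each IGF axis gene in CONT and REST, by its brightest tested probe or, where none was tested, its brightest probe. Each line is 1 cow, coloured by slide, and black squares with bars are the mean ± SD of 6 arrays; every vertical axis spans the same number of log2 units, centred on the gene. IGFBP3 lines all go up, from between 2.51 and 3.42 in CONT to between 3.20 and 4.12 in REST, whereas 3 IGF1 lines go up and 3 go down.

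The ligand IGF1 (NM_001077828) was near the detection limit. Its tested probe had signals of -3.02, -2.25 and -2.06 in CONT (lowest, median and highest of 6 arrays) and of -3.17, -2.32 and -1.41 in REST. The periods overlapped over most of their range, with the highest and the lowest array both in REST. The change was 0.08 ± 0.20 log2 units (SE, 95% interval -0.36 to 0.53, adjusted p = 0.820), with 3 cows higher and 3 lower, from -0.89 in cow 1 to 0.81 in cow 3. The interval covers changes of moderate size in either direction, and within slides the mean change was -0.46, 0.47 and 0.22. The other 2 probes of IGF1 were too dim to test. One was well above background on 4 CONT and 3 REST arrays and differed by -0.64, the other on 0 CONT and 2 REST arrays. The sign of the tested probe is not settled either, since it was -0.06 after normexp background correction with the 75th percentile shift (0.05 with quantile normalization in its place), -0.07 without cow 3 and -0.02 without cow 5.

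IGF2 (NM_174087), the ligand known for its part in fetal growth and for imprinted expression, was a bright transcript covered by 11 probes, all of them tested. The brightest probe (A_73_P348406) had signals of 5.00, 5.33 and 5.95 in CONT and of 5.60, 5.72 and 6.13 in REST. The CONT arrays of cows 5 and 6, on slide 3, reached into the range of REST. The change was 0.34 ± 0.11 (SE, 95% interval 0.08 to 0.59, adjusted p = 0.0955), a 1.26-fold rise, with 5 of 6 cows higher. By cow it was 0.25, 0.38, 0.41, 0.76, 0.35 and -0.13 for cows 1 to 6. The probe with the largest change (A_73_P104016) had signals of 2.35, 2.73 and 3.15 in CONT and of 2.96, 3.26 and 3.42 in REST. It was higher in 6 of 6 cows, by 0.48 ± 0.11 (SE, adjusted p = 0.0346).

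The 11 IGF2 probes did not all follow one another. Of them, 10 were higher in REST, by 0.22 to 0.48, and 3 of these were called. The eleventh (A_73_P102806) differed by -0.13 (95% interval -0.35 to 0.10, adjusted p = 0.432) and was lower in 5 of 6 cows. Over the 12 arrays the 10 probes correlated with each other with r between 0.37 and 0.98 (median 0.84), but with the eleventh with r between -0.46 and 0.02. These correlations share arrays and slides and carry no test. Where on the transcript each probe lies was not examined, so whether the eleventh reads another transcript form was not tested. By cow, the median change over the probes was highest in cow 4, at 0.76, and lowest in the cows of slide 3, at 0.10 in cow 5 and -0.06 in cow 6.

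Whether IGF2 counted as called depended on how its probes were used. Averaged over its probes, the change was 0.29 ± 0.10 (SE) with an adjusted p of 0.107, where 18.2% of all genes were called in this way. Against 3 called probes with all cows and the block, there were 9 without slide 3 and 1 without the block. Without cow 2 there were 0 by limma, with an unadjusted p under 0.05 for 5, and a lowest adjusted p of 0.1005. Among the 182 genes with at least 5 tested probes, 29.7% had a called probe and 13.7% had one called higher.

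**Figure D2:**
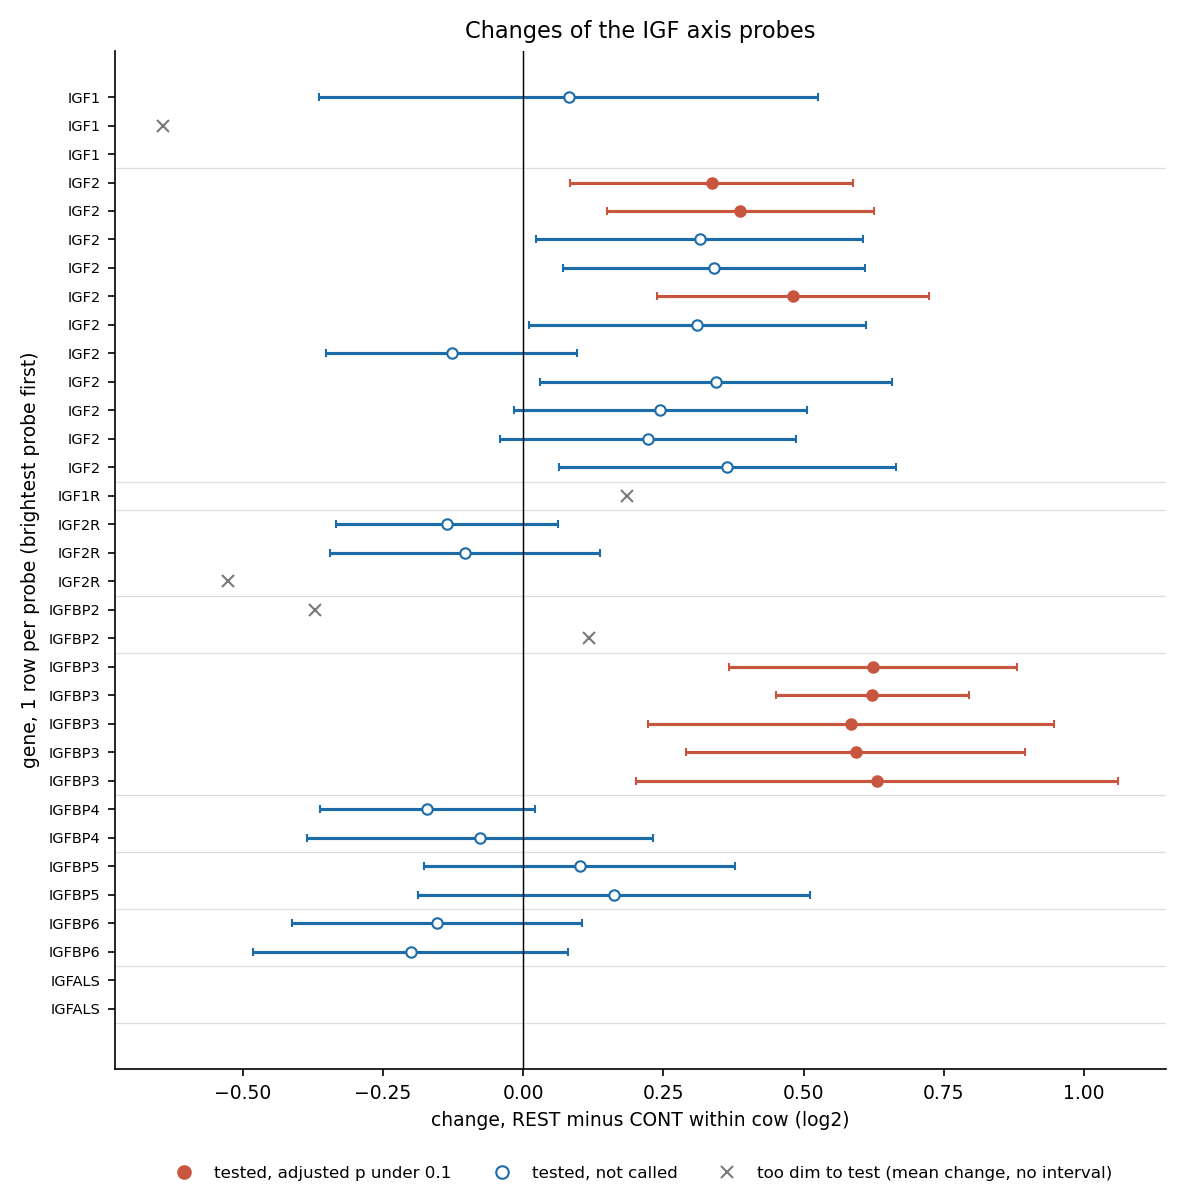
Change from CONT to REST (log2, horizontal axis) of the IGF axis probes, 1 row per probe. Circles are fitted changes with 95% intervals, filled where called; crosses are mean changes of probes too dim to test, and the 3 rows without a symbol are probes not above background on any array of 1 or both periods. The 5 IGFBP3 probes lie between 0.58 and 0.63, and 10 of the 11 IGF2 probes lie to the right of 0.

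The signalling receptor IGF1R could not be tested. Its only probe (NM_001244612) was well above background on 5 CONT and 5 REST arrays, with signals of -3.44, -2.48 and -1.55 in CONT and of -2.84, -2.27 and -1.84 in REST. The REST arrays lay within the range of CONT, 3 cows were higher and 3 were lower, and the mean change was 0.99 on slide 1, 0.08 on slide 2 and -0.51 on slide 3. Without slide 3 the probe passed the filter and differed by 0.54 (95% interval -0.07 to 1.14, adjusted p = 0.242).

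IGF2R (NM_174352), the clearance receptor for IGF2, was bright and close in level between cows. Its brightest probe had signals of 3.07, 3.14 and 3.33 in CONT and of 2.62, 3.02 and 3.31 in REST. The change was -0.14 ± 0.09 (SE, 95% interval -0.33 to 0.06, adjusted p = 0.342), with 5 of 6 cows lower. It was -0.07 without cow 3 and -0.05 after normexp with the 75th percentile shift. The second probe differed by -0.10. The third, which was well above background on 4 arrays of each period and so not tested, was lower in 6 of 6 cows, by 0.53 on average. Of all tested probes, 9.78% were lower in all 6 cows. Without slide 3 the third probe passed the filter and was called, with a change of -0.61 (adjusted p = 0.068), while the brightest probe of the same gene stood at -0.16 (adjusted p = 0.447).

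IGFBP3 (NM_174556), the most abundant IGF carrier in blood and a protein that can both sequester IGF and act on cells without it, had the clearest change of the axis. All 5 of its probes were called higher, by 0.58 to 0.63, which for the brightest is 1.54-fold. One of the 5, the dimmest, passed the filter only through REST. The brightest probe (A_73_P088791) had signals of 2.51, 3.04 and 3.42 in CONT and of 3.20, 3.62 and 4.12 in REST. The ranges overlapped, as they did for each of the 5 probes. The mean signal was 3.03 ± 0.35 in CONT and 3.65 ± 0.32 in REST (SD, n = 6).

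The change of this IGFBP3 probe was 0.62 ± 0.11 (SE, 95% interval 0.37 to 0.88, adjusted p = 0.0194), and by cow it was 0.38, 0.70, 0.70, 0.60, 1.11 and 0.26. It was about as large on each slide, at 0.54, 0.65 and 0.69. The second probe (A_73_120953) gave 0.62 ± 0.08 (SE, adjusted p = 0.00644) with the narrowest spread between cows, from 0.47 to 0.76. Of the 5 probes, 4 were higher in 6 of 6 cows, as were 7.76% of all tested probes, and the dimmest was higher in 5, with cow 6 at -0.23. The probes correlated with each other over the 12 arrays with r between 0.79 and 0.94. The median absolute change of all called probes of the array was 0.42, and by the p-value of its brightest probe IGFBP3 ranked 169th of 7930 tested genes.

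The number of IGFBP3 probes called depended on single cows and on the test. It was 2 of 5 without cow 4 and 3 of 5 without cow 2. Without the cow as a block 3 of 5 probes were called, with an adjusted p of 0.0955 for the brightest. With a paired test without moderation 2 were called, and with an unpaired test without moderation, 0 were (adjusted p = 0.146 for the brightest), with an unadjusted p under 0.05 for all 5.

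**Figure D3:**
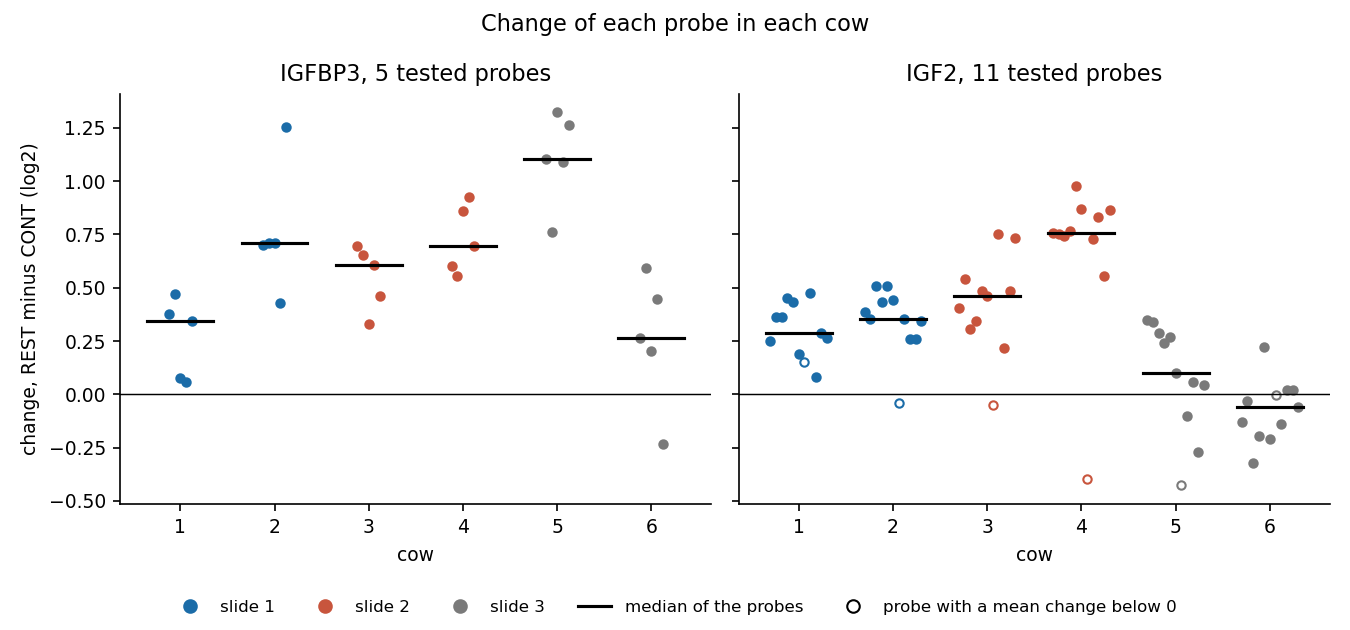
Change from CONT to REST (log2) of every tested probe of IGFBP3 (left) and IGF2 (right) in each of 6 cows, 1 point per probe, coloured by slide, with the median over the probes as a black line. The median IGFBP3 change lies above 0 in all 6 cows, from 0.26 in cow 6 to 1.11 in cow 5, and that of IGF2 from -0.06 in cow 6 to 0.76 in cow 4; open points are the 1 IGF2 probe whose mean change is below 0.

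Some markers of vessel endothelium were also higher in REST, as were some of luminal epithelium (3 of 7 tested called higher, median 0.33). Of 7 endothelial markers, 6 were tested and 2 were called, both higher, where 20.5% of all tested genes were called and 9.07% were called higher. VWF, the clotting factor carrier, rose by 0.54 (adjusted p = 0.00726) and CLDN5, a tight junction protein, by 0.74 (adjusted p = 0.0115), each in 6 of 6 cows. The 4 that were not called were PECAM1 at 0.32, TEK at 0.13, CDH5 at 0.03 and KDR at -0.15, and the median change of the 6 was 0.22. The summed linear signal of the list, relative to the 75th percentile, ranged from 14.2 to 23.5 in CONT and from 23.0 to 31.1 in REST. That sum weighs bright genes most. It rests mainly on the called CLDN5 and VWF, with mean signals of 3.44 and 2.42, against 1.06 or less for the others. VWF and CLDN5 were called without the block as well. Their part in the IGFBP3 result was not tested.

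The remaining binding proteins showed no called change. IGFBP4 (NM_174557), an inhibitor of IGF action in most settings, had signals of 2.36, 2.62 and 3.08 in CONT and of 2.16, 2.53 and 2.95 in REST on its brightest probe. It differed by -0.17 (95% interval -0.36 to 0.02, adjusted p = 0.226), with 5 of 6 cows lower, and its second probe by -0.08 (95% interval -0.38 to 0.23).

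IGFBP5 (NM_001105327), which is linked to involution and cell death in the mammary gland, had signals of -0.49, 0.57 and 1.08 in CONT and of -0.24, 0.64 and 1.104 in REST. Cow 1 was the lowest in both periods, and the ranges nearly coincided. The change was 0.10 (95% interval -0.18 to 0.38, adjusted p = 0.628) and 0.16 on the second probe, so that a rise of the size of IGFBP3, 0.62, lay outside the first interval. On leaving out 1 cow at a time the first probe ranged from 0.05 to 0.22. IGFBP6 (NM_001040495), a carrier that prefers IGF2, had signals of 3.48, 3.95 and 4.26 in CONT and of 3.42, 3.71 and 4.06 in REST. It differed by -0.15 (95% interval -0.41 to 0.10, adjusted p = 0.413), and by -0.20 on the second probe. The first of these changes ranged from -0.25 to -0.09 on leaving out 1 cow at a time. After normexp with the 75th percentile shift it was -0.07.

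IGFBP2 (NM_174555), an abundant carrier in milk and blood, varied widely between cows. Its brighter probe ranged from -4.50 to -1.61 in CONT and from -5.01 to -1.48 in REST, and was well above background on 3 arrays of each period. Cow 3 was the highest in both periods, and the lowest arrays were those of cow 1 in CONT and cow 4 in REST. The mean change was -0.37 on this probe and 0.12 on the other. IGFALS, a product mainly of the liver, was well above background on 2 CONT and 0 REST arrays with one probe and on 0 arrays with the other. Of 4 liver markers, ALB was well above background on 0 CONT and 2 REST arrays and FGB on 0 CONT and 1 REST array, while APOA1 and TTR were on all 12, and APOA1 was called higher, by 0.998 (adjusted p = 0.0109).

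Genes with a signal pattern most like that of IGF1 and IGFBP3 were sought over the 12 arrays among 7929 other tested genes, by the Pearson correlation of the brightest probes. For IGF1 they were S100A4 (r = 0.914), COL6A1 (0.885) and COL6A2 (0.874), a calcium-binding protein and a pair of collagen VI chains. Their changes were 0.11, -0.09 and 0.24. For IGFBP3 they were PARM1 (r = 0.916), TSPAN5 (0.903) and CD34 (0.879), the last a surface protein of vessel and progenitor cells. Their changes were 0.48, 0.46 and 0.38, which follow in part from the choice, since it used the arrays of both periods. Within CONT and within REST, r with IGFBP3 was 0.92 and 0.79 for PARM1, 0.96 and 0.73 for TSPAN5, and 0.66 and 0.95 for CD34. Without the 2 arrays farthest from the median, r with IGFBP3 was 0.89 for PARM1, 0.86 for TSPAN5 and 0.71 for CD34. With IGF1 it was 0.83 for S100A4, 0.77 for COL6A1 and 0.96 for COL6A2. These values are descriptions, because each pair of arrays shares a cow and each 4 share a slide.

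The rest of the pathway was described with 4 lists. Of 30 tested genes in them, 6 were called, a share close to the 20.5% of all tested genes. Without the cow as a block 0 were called by limma or by the unpaired test without moderation, with an unadjusted p under 0.05 for 7 genes by either, while 5.67% of all tested genes were called by limma. Of 22 genes of receptor-proximal signalling, which carry the signal from the receptor to AKT and FOXO, 15 had a probe and 10 were tested. The median change was 0.02, beside -0.01 over all tested genes. Under limma with the block, 0 were called, and the unadjusted p was under 0.05 for 1 of them, RACK1, a scaffold that binds IGF1R, at 0.35 (adjusted p = 0.102).

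Of 9 genes of growth hormone and STAT5 input, 5 were tested and 1 was called. SOCS2, a STAT5 target that limits growth hormone signalling, had signals of 0.62, 1.17 and 1.73 in CONT and of 0.12, 0.64 and 1.21 in REST, and fell by 0.59 (95% interval -0.89 to -0.29, adjusted p = 0.0349), lower in 6 of 6 cows. The median of the 5 was -0.37. CISH, another STAT5 target, differed by -0.73 (adjusted p = 0.148), STAT5B by -0.37 (adjusted p = 0.109), STAT5A by 0.05 (adjusted p = 0.786) and the growth hormone receptor GHR by -0.01 (95% interval -0.24 to 0.22).

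Of 13 proteases that cleave IGF binding proteins and their inhibitors, 8 were tested and 3 were called, all higher, with a median of 0.18, where 9.07% of all tested genes were called higher. Without the cow as a block 0 of the 8 were called by limma or by the unpaired test, with an unadjusted p under 0.05 for 3 by either. Leaving out cow 2, 1 of the 8 was called by limma, with an unadjusted p under 0.05 for 4. PLAT, the tissue plasminogen activator, had signals of 1.49, 1.82 and 2.35 in CONT and of 2.12, 2.41 and 2.80 in REST, and rose by 0.52 (95% interval 0.32 to 0.72, adjusted p = 0.0152) in 6 of 6 cows. STC1, an inhibitor of the proteases that cut IGFBP4 and IGFBP5, rose by 0.47 (adjusted p = 0.0809) in 5 of 6 cows. CTSD, the lysosomal protease cathepsin D, rose by 0.27 (adjusted p = 0.0770) in 6 of 6 cows. Of the 5 not called, 2 were below 0, the plasminogen activator PLAU at -0.37 (adjusted p = 0.154) and the serine protease HTRA1 at -0.16 (adjusted p = 0.214).

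Of 13 relatives of the binding proteins and regulators of IGF2, 7 were tested and 2 were called, with a median of 0.08. IGFBP7, a low-affinity relative that is abundant in vessel walls and stroma, had signals of 5.69, 5.98 and 6.50 in CONT and of 4.87, 5.58 and 5.96 in REST. It fell by 0.51 (95% interval -0.77 to -0.25, adjusted p = 0.0348), lower in 6 of 6 cows and on 2 of 2 probes. H19, the noncoding RNA imprinted oppositely to IGF2, rose on 1 of 2 tested probes. Its brighter probe differed by 0.43 (adjusted p = 0.148) and the called probe by 0.46 (adjusted p = 0.0948). IGFBP1, which lies next to IGFBP3 in the ARS-UCD2.0 assembly, was well above background on 0 arrays.

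**Figure D4:**
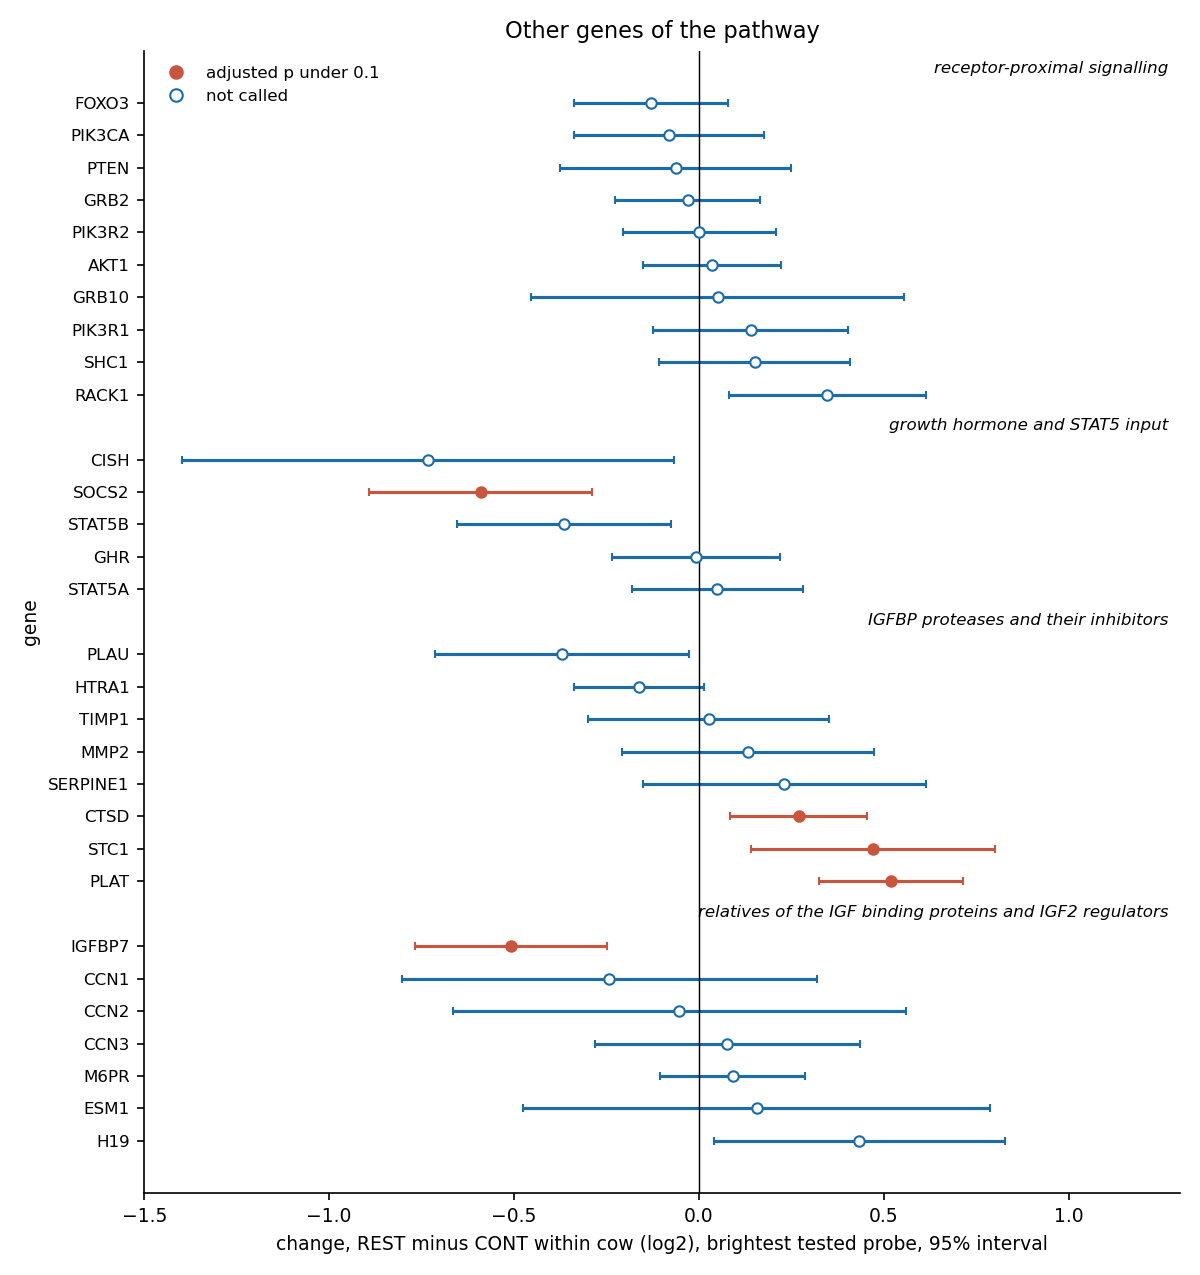
Change from CONT to REST (log2, horizontal axis) of the 30 tested genes of the 4 pathway lists, by the brightest tested probe of each gene, with 95% intervals; filled points have an adjusted p under 0.1. SOCS2 and IGFBP7 lie at -0.59 and -0.51, PLAT, STC1 and CTSD lie between 0.27 and 0.52, and H19, called by its other probe, is drawn open.

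The arrays of slide 3, with cows 5 and 6, were dimmer than those of slides 1 and 2, with a 75th percentile of 73.2 to 117 against 252 to 390.0 intensity units. The 2 biopsies of a cow always shared a slide. Counts of called genes in the marker lists stand beside 9.07% of all tested genes called higher and 11.5% called lower. Of 8 tested lactating gland genes, 5 were called lower (median -0.19, LALBA -0.20, CSN3 -0.28). The brightest probe of LALBA, which gave -0.20, was not called (adjusted p = 0.139 by limma). LALBA and some others of the 5 were called only through another probe. Of 7 luminal epithelial genes, 3 were called higher (median 0.33, ELF5 -0.05, KRT19 0.12), and of 7 myoepithelial genes, 2 were called lower (median 0.04, ACTA2 -0.38, MYH11 0.10). Of 9 fibroblast genes, 1 was called higher and 1 was called lower (median -0.20, DCN 0.32, COL3A1 -0.48), and of 9 leukocyte genes, 2 were called higher (median 0.17, CD4 -0.22, CD14 -0.09). Of these 2 leukocyte genes, 1 passed the filter only through REST, being well above background on 5 CONT and 6 REST arrays. The 1 tested adipocyte gene, FABP4, was called lower, by 0.35, and of 2 tested liver genes APOA1 was called higher and TTR differed by 0.43. Of the 41 tested genes of these lists other than the liver genes, 15 were called, and without the block 0 were by limma (unadjusted p under 0.05 for 12) and 2 by the unpaired test. Leaving out cow 2, 4 of the 41 were called by limma (unadjusted p under 0.05 for 16). The part of these lists in the results of the IGF axis was not tested.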

How the data were processed

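Total RNA of 12 mammary gland biopsies was labelled with Cy3 and hybridised to 12 one-colour bovine arrays on 3 slides. Per the labels, the authors extracted the scans with Agilent Feature Extraction version 11. The deposited processed intensity is background-subtracted, on a linear scale and not scaled between arrays, and the deposited series table held the same intensities in all 45220 cells of each array, so the 75th percentile shift that the methods name was computed here. The genome build named in the array grid differs from that of the reference gene table (ARS-UCD2.0), so no positions are given. Through RefSeq identifiers, 27131 of 43653 probes (62.2%) received a symbol.

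The processed intensity was log2-transformed, that percentile, taken over 43803 spots other than controls, was subtracted within each array, repeat spots were averaged, and spots marked as non-uniform or outliers (1 to 13 per array) were left out. The fit of REST against CONT used limma 3.58.1 (R 4.3.3), with the cow as a fixed block and a Benjamini-Hochberg threshold of 0.1 over all 19403 tested probes; the methods name t-tests with the same correction and threshold, without saying whether they were paired, and an unpaired and a paired t-test without moderation were run as alternatives. Tests are two-sided. For a gene with several probes, the tested probe of highest mean signal gives its value, and a gene is called if any tested probe passes. The fit was tested on simulated data. Python 3.11.15, pandas 2.3.3 and matplotlib 3.10.9 were also used.

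The labels name 6 cows, each by an animal identifier that pairs its CONT and REST arrays, while the series description counts 5, and the methods state that 1 Holstein cow was excluded for mastitis. Which cow that was is not given in the sources used here, so each cow was left out in turn. Across probes, CONT and REST arrays of the same cow deviated together from their period means (r between 0.36 and 0.57), and those of different cows had r between -0.33 and 0.13. The 75th percentile was higher in REST in 6 of 6 cows, by 0.30 ± 0.10 log2 units (SD), which the shift removes. Precision is limited by having 6 arrays a period. With the cow as a block, the p-values rest on how much the change varies between these cows, with that spread moderated over all tested probes.

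The genes, the 4 pathway lists and the 8 marker lists were chosen with earlier results of these data known. Named genes were all 10 of the IGF axis with every probe, at most 4 called genes of each pathway list by absolute change, the 3 genes most like IGF1 and IGFBP3, and the 2 brightest tested genes of each marker list. Genes named outside this rule (RACK1, CISH, STAT5A, STAT5B, GHR, PLAU, HTRA1, IGFBP1, PECAM1, TEK, CDH5, KDR, ALB and FGB) were chosen after their values were seen. Alternatives were other scalings and background corrections (normexp on the median spot signal with an offset of 50), other filters, other blocks and tests, and each cow left out; leaving out slide 3 and averaging the probes of a gene were chosen after seeing the data.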

Additional observations from a re-analysis of the deposited data

Results flagged for a closer look

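In CONT, the IGF2R signal of cow 6 (3.33 on the log2 scale) stood apart from those of the other cows, which lay between 3.07 and 3.15. Its gap to the nearest of them was 0.686 of the whole range. Of the 20 sets of 6 arrays examined, 1 array stood apart in this way, and chance gives about 1 in 20.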

How the results depend on the processing

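IGFBP3 was higher in REST under every alternative run, with a change between 0.53 and 0.70 for its brightest probe, which was not called without a filter on dim probes (adjusted p = 0.106) or by the unpaired t-test (adjusted p = 0.146). The changes of IGF2R, IGFBP4, IGFBP5 and IGFBP6 kept their direction and were not called by their brightest probes under any alternative run. Every scaling run aligned the arrays with each other, so these directions are relative to the array. No run kept the array-wide rise of REST, 0.30 log2 units at the 75th percentile, which is larger than the changes of these genes. IGF1 changed sign to -0.0551 after normexp with the 75th percentile shift, to -0.0658 without cow 3 and to -0.02 without cow 5 (and was highest, at 0.28, without cow 1), and IGF2 was -0.13 on 1 of its probes. With no replicate block, which drops the pairing of arrays by cow, 836 probes were called over the array instead of 3104, 0 pathway genes instead of 6, and the same number, 2, of IGF axis genes. With the slide as the block 1898 probes were called. With no filter on dim probes there were 388 probes, 1 IGF axis gene and 2 pathway genes. The unpaired t-test gave 722 probes, 0 IGF axis genes and 0 pathway genes (unadjusted p under 0.05 for 2 and 7 genes; limma with no block called 2 and 0). The paired test without moderation gave 1852 probes and 3 pathway genes. Averaging the probes of each gene left 1 IGF axis gene, IGFBP3. Leaving out 1 cow at a time gave 1045 to 3252 probes, 1 to 2 IGF axis genes (1 without cow 2) and 3 to 6 pathway genes (3 without cow 2, 4 or 5). Without slide 3 there were 3 IGF axis genes, the third being IGF2R through its dimmest probe. The causes of these differences were not tested. With no filter on dim probes the fit and the adjustment ran over all 43653 probes. The unadjusted p by limma was then under 0.05 for 5 IGF2 probes, against 8 in the main fit. Signal over background limited IGF1, IGF1R, IGFBP2 and IGFALS.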
